A study of Mus musculus with 2 samples.

Results

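Regulators of G protein signalling (Rgs genes) and the receptor gene Gpr83 were examined in regulatory T cells (Treg) of mice with 2 or 1 floxed alleles of the transcription factor gene Stat3. The genes were Rgs1, Rgs2, Rgs3, Rgs10, Rgs14, Rgs16, Rgs18, Rgs19 and Gpr83, chosen by name as regulators that limit chemokine receptor signals, together with a receptor transcribed in Treg. They are 9 of the 18193 genes that the array's annotation names by a single symbol, and 20 probe sets read them. A probe set is called measured below where at least 1 array reached log2 5. Of the 20, 15 were measured, all of them past log2 5 in both arrays. They cover 8 of the 9 genes. Rgs18 was not among them.

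Flow cytometry was used to sort Treg out of the spleens and lymph nodes of female mouse donors 6 to 8 weeks old, and their RNA was hybridised to Affymetrix arrays. The fl/fl array held RNA of the genotype Foxp3<Cre/wtS> Stat3<fl/fl>, in which both Stat3 alleles are floxed, meaning that Cre recombinase can cut out part of the gene. The fl/wt array held RNA of the genotype Foxp3<Cre/wtS> Stat3<fl/wt>, in which 1 allele is floxed. Both genotypes thus carried Cre at one Foxp3 allele. Cre is then made only in cells that use that X chromosome, and the sources used here do not give whether the sort selected them, how many mice were used or which Stat3 exons are removed. There was 1 array per genotype, so no value below has a replicate error or a p-value, and each difference describes these 2 arrays only.

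G protein coupled receptors, among them the chemokine receptors that guide lymphocytes, signal by loading the alpha subunit of a G protein with GTP, which frees the beta and gamma subunits. Rgs proteins carry a conserved RGS domain that speeds the hydrolysis of this GTP, so that the signal ends sooner. In lymphocytes this sets how strongly and how long a cell answers a chemokine, and several Rgs transcripts are induced by antigen receptor signals. Gpr83 is a receptor of the same superfamily whose transcript is abundant in mouse Treg.

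Across the 15 measured probe sets the 2 arrays were nearly equal. The differences, fl/fl minus fl/wt on the log2 scale, ran from -0.13 to 0.13, with a median of 0.0069. Over all 19718 measured probe sets of the array the median was -0.0017. No probe set of these genes was 1.5-fold higher, against 0.279% of all measured probe sets, and none was 1.5-fold lower, against 0.502%. None was 1.2-fold higher either (3.37% of all) and none 1.2-fold lower (3.87% of all). Differences of 1.5-fold were rarer still at the levels of these genes. The share past 1.5-fold in either direction was 0% of all probe sets with a mean at or above log2 11. It was 0.035% from log2 9 to 11. Of the 15, 10 and 4 lie in these bands, so an absence at 1.5-fold is the common case there. At a smaller limit of 0.1 on the log2 scale, picked after the values were seen, 3 of the 15 were higher in fl/fl and 2 lower, where all measured probe sets gave 15.3% higher and 16.5% lower. The median size of the difference was 0.058 for these genes and 0.059 for all measured probe sets. By level, the median size over all probe sets was 0.033 at or above log2 11 and 0.055 from log2 9 to 11.

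**Figure D1:**
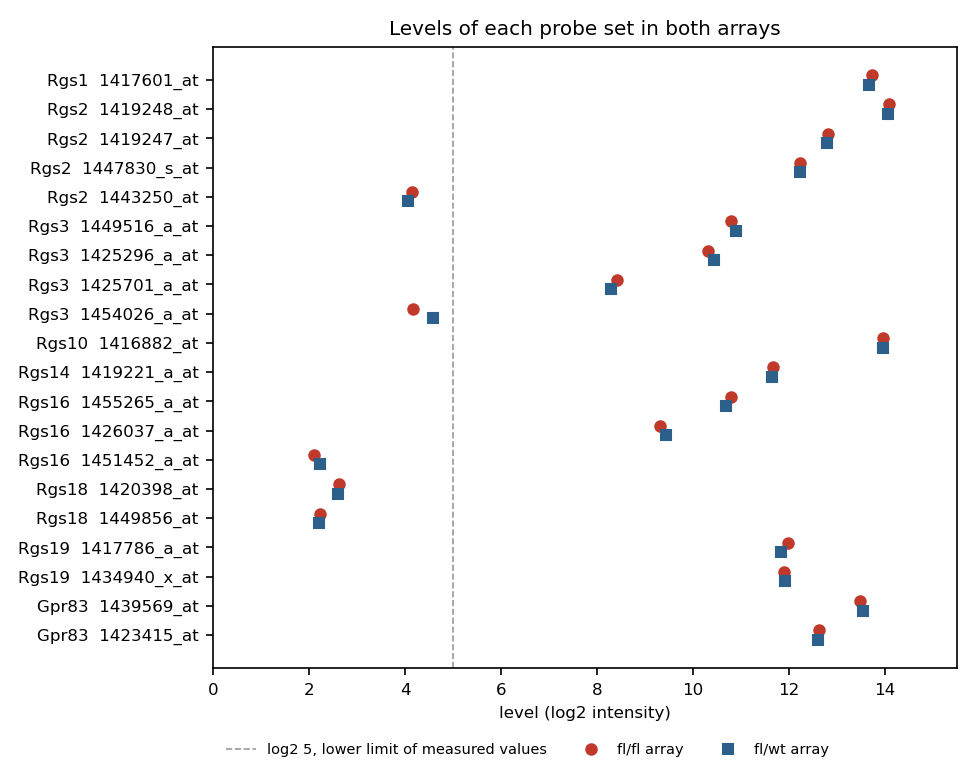
Log2 intensity (horizontal axis) of the 20 probe sets of the 9 genes in the fl/fl array (circles) and the fl/wt array (squares), 1 row per probe set. The paired symbols nearly coincide in the 15 rows right of the dashed line at log2 5, and the 5 rows left of it include both Rgs18 probe sets.

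Several Rgs genes have more than one transcription start, and their probe sets may read different transcripts. The RefSeq promoter table (GRCm38.p6) holds 9 start sites for 6 of the 9 genes. Rgs3 has 2 of these and Rgs19 has 3, and both are genes whose probe sets disagreed in direction, as described below. The probe sets of Rgs16 and Gpr83 disagreed as well, and these genes have a single start there. Whether the starts bear on the directions was not tested. The 100 bases before each Rgs3 and Rgs19 start are shown, 5′ to 3′ on the gene's strand. CG dinucleotides, the sites of DNA methylation, are in capitals.
Rgs3, chr4:62559747-62559846, + strand: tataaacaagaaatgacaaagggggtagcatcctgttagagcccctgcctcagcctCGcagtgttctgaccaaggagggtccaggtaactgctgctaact
Rgs3, chr4:62619572-62619671, + strand: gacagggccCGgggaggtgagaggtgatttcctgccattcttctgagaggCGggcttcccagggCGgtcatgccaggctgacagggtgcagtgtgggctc
Rgs19, chr2:181693978-181694077, - strand: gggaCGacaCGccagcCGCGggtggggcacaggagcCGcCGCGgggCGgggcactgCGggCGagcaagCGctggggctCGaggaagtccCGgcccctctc
Rgs19, chr2:181693811-181693910, - strand: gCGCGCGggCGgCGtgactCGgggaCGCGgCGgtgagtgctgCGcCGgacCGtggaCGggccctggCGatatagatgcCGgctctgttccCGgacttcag
Rgs19, chr2:181691818-181691917, - strand: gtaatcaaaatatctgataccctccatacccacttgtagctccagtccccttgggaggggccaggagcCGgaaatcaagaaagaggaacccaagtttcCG

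The Rgs3 windows hold 1 and 3 CG dinucleotides. The Rgs19 windows hold 13, 16 and 2, so the first and second start lie in CG-rich sequence and the third does not. The median over 32851 promoters in the table is 3. Which start each probe set reads is not given in the tables used here. The letters TTCNNNGAA, the core to which Stat proteins bind, occur in none of the 9 promoters of these genes, taken from 250 bases before the start to 50 after it. The motif reads the same on both strands. Of 27025 genes with a promoter in the table, 9.55% hold it. A missing match says only that these letters are not in this window.

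Rgs1, Rgs2, Rgs3, Rgs16 and Rgs18 form one subfamily, mostly of small proteins built around the RGS domain. Rgs1, which restrains the movement of activated B and T cells towards chemokines, read log2 13.72 in the fl/fl array and 13.66 in the fl/wt array (probe set 1417601_at). The difference was 0.067, or 1.05-fold. It was the only probe set that the annotation pairs with Rgs1 alone.

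Rgs2, which acts mainly on the Gq class of alpha subunits, was read by 3 measured probe sets that all leaned the same way by very little. Probe set 1419248_at read 14.07 in fl/fl and 14.05 in fl/wt, a difference of 0.021. Probe set 1419247_at read 12.80 in fl/fl and 12.79 in fl/wt, a difference of 0.0069, and 1447830_s_at read 12.23 in both arrays, with a difference of 0.00038. The span of the 3 differences was 0.021 on the log2 scale, the narrowest of the 5 genes here with several measured probe sets. For the 1051 genes of the array with 3 measured probe sets, the direction differed within the gene in 74.2%, and the median span was 0.16. This comparison does not match the levels. The Rgs2 probe sets had means of log2 12.23 to 14.06, and at or above log2 11 differences were smaller, with a median size of 0.033. Another Rgs2 probe set, 1443250_at, was under log2 5, at 4.14 in fl/fl and 4.05 in fl/wt.

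Rgs3, which acts on Gi and Gq subunits and is made in long and short forms, had 3 measured probe sets that did not share a direction. Probe set 1449516_a_at read 10.79 in fl/fl and 10.89 in fl/wt, a difference of -0.098. Probe set 1425296_a_at read 10.30 in fl/fl and 10.43 in fl/wt, a difference of -0.13. The third, 1425701_a_at, read 8.42 in fl/fl and 8.29 in fl/wt, a difference of 0.13. Of the Rgs3 probe sets, 1449516_a_at and 1425296_a_at were thus lower in fl/fl and 1425701_a_at higher, with a span of 0.26. One more Rgs3 probe set, 1454026_a_at, read 4.17 in fl/fl and 4.58 in fl/wt. Its difference of -0.41 was the largest of all 20 probe sets, but both values lie under log2 5 and do not count as measured, so no direction is read from it.

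Rgs16, a regulator of Gi and Gq signals that activated T cells induce, also gave opposite readings. Probe set 1455265_a_at read 10.80 in fl/fl and 10.68 in fl/wt, a difference of 0.11. Probe set 1426037_a_at read 9.31 in fl/fl and 9.43 in fl/wt, a difference of -0.12. The differences are of like size and opposite sign, so these arrays give no direction for Rgs16. The third probe set, 1451452_a_at, was under log2 5 in both arrays, at 2.09 in fl/fl and 2.22 in fl/wt.

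Rgs18, a regulator abundant in platelets and megakaryocytes, was not measured in either array. Its probe sets read 2.62 in fl/fl and 2.60 in fl/wt (1420398_at), and 2.23 in fl/fl and 2.21 in fl/wt (1449856_at). Both differences, 0.018 and 0.023, are positive. Of the 25319 probe sets under log2 5 in both arrays, 91.4% were likewise higher in fl/fl, with a median of 0.015, so a small positive value at this level is the common case. Platelet markers were read beside it. Of 9 such genes, 3 were measured, 5 were under log2 5 in both arrays and 1 had no probe set with a single symbol here. The platelet chemokine Pf4 read 5.99 in fl/fl and 5.80 in fl/wt, while Ppbp, Gp9 and Itga2b read at most 3.82 in fl/fl and 3.81 in fl/wt. The integrin chain Itgb3 read 10.24 in fl/fl and 10.14 in fl/wt, and the receptor Clec1b read 10.17 in fl/fl and 10.21 in fl/wt.

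Rgs10 and Rgs14 belong to a second subfamily that prefers Gi subunits. Rgs10, a small protein known from macrophages and microglia, read 13.95 in fl/fl and 13.96 in fl/wt (1416882_at), a difference of -0.0087. Rgs14, which adds Ras-binding domains and a GoLoco motif that holds Gi subunits in the GDP form, read 11.66 in fl/fl and 11.64 in fl/wt (1419221_a_at), a difference of 0.018. Each was read by a single probe set, and both differences were under 0.02 on the log2 scale.

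Rgs19, from a further subfamily that is anchored to membranes through lipid on a string of cysteines, was read by a pair of probe sets. Probe set 1417786_a_at read 11.97 in fl/fl and 11.84 in fl/wt, a difference of 0.13, or 1.10-fold. Probe set 1434940_x_at, whose suffix marks probes that can also bind other transcripts, read 11.89 in fl/fl and 11.91 in fl/wt, a difference of -0.019. The first of these was the only probe set of the group to lie outside the central 95% of differences for its level. For the 5273 probe sets with a mean at or above log2 11 that range ran from -0.11 to 0.12. The second lay well inside it and had the opposite sign, so the 2 readings of Rgs19 do not share a direction.

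Gpr83 was well above log2 5 with both of its probe sets. Probe set 1439569_at read 13.49 in fl/fl and 13.55 in fl/wt, a difference of -0.058. Probe set 1423415_at read 12.62 in fl/fl and 12.61 in fl/wt, a difference of 0.010. The directions were opposite and both sizes lay inside the range for their level.

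**Figure D2:**
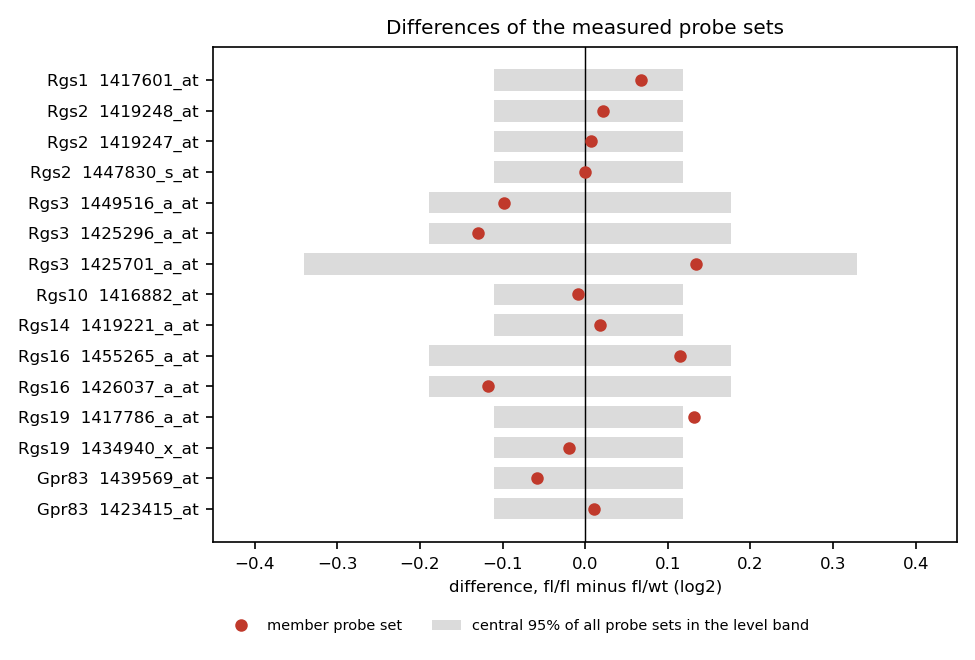
Difference between the fl/fl and fl/wt arrays on the log2 scale (horizontal axis) for the 15 measured probe sets (points), with the central 95% of differences of all probe sets in the same band of mean level (grey bars; bands are log2 7 to 9, 9 to 11, and 11 and up). Only the Rgs19 probe set 1417786_a_at, at 0.13, lies outside its bar.

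Readings of one gene often disagreed in direction, here and over the whole array. Of the 5 genes here with at least 2 measured probe sets, Rgs3, Rgs16, Rgs19 and Gpr83 had readings in opposite directions and Rgs2 did not. Among the 4310 genes of the array with at least 2, the share with opposite directions was 61.4%. Rgs1, Rgs10 and Rgs14 had 1 measured probe set each and allow no such comparison.

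The size of the differences followed the level. Of the 10 probe sets with a mean at or above log2 11, 1 differed by at least 0.1, where 7.47% of all probe sets of that band did. Of the 4 between log2 9 and 11, 3 did, those of Rgs16 and 1 of Rgs3, where 24.5% of the band did. The single one between log2 7 and 9, of Rgs3, also did, where 47.4% of the band did.

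**Figure D3:**
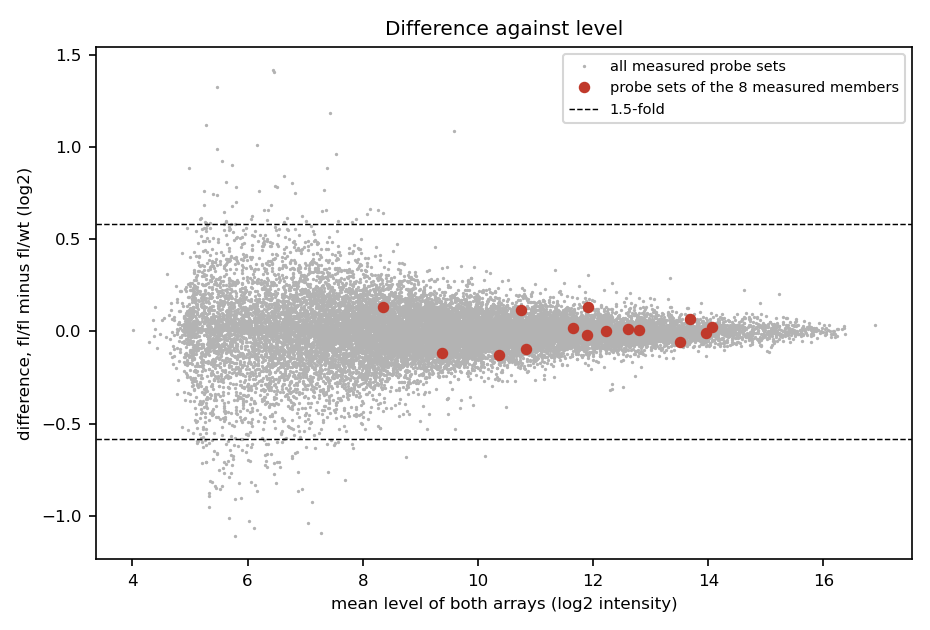
Difference between the fl/fl and fl/wt arrays on the log2 scale (vertical axis) against the mean level of both arrays (horizontal axis, log2 intensity) for all 19718 measured probe sets (grey) and the 15 of the Rgs genes and Gpr83 (large points). The large points lie within the grey cloud, between the dashed lines at 1.5-fold, and the cloud narrows as the level rises.

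The floxed gene does not check the genotype labels. Stat3 read 11.99 in fl/fl and 12.00 in fl/wt with its brightest probe set, and its 3 measured probe sets differed by -0.0083, -0.019 and -0.083. The sources used here do not place them relative to the removed exons, so the directions above rest on the labels.

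The cell type label was set against marker genes. Of 11 Treg markers 9 were measured, at log2 11.76 to 14.87 in fl/fl and 11.75 to 14.91 in fl/wt. Foxp3, the factor that defines Treg, was not measured, at 3.52 in fl/fl and 4.09 in fl/wt. All 9 T cell markers that had a probe set were at or above 12.21 in fl/fl and 12.27 in fl/wt. Myeloid markers were also present: 9 of 10 were measured, all at or above 10.26 in fl/fl and 10.27 in fl/wt, among them Adgre1, a macrophage surface antigen, at 12.09 in fl/fl and 12.04 in fl/wt. Itgam, the myeloid integrin CD11b, was at 2.37 in fl/fl and 2.36 in fl/wt. Summed on the linear scale, myeloid marker signal was log2 15.86 in fl/fl and 15.85 in fl/wt. Of 10 B cell markers 4 were measured, 1 higher and 3 lower in fl/fl. Their summed signal was 10.66 in fl/fl and 10.74 in fl/wt, and their median difference was -0.12. The B cell receptor chain Cd79b read 10.26 in fl/fl and 10.34 in fl/wt. Cd79a, the marker that was higher, read 7.77 in fl/fl and 7.61 in fl/wt, a difference of 0.16. Ms4a1, a B cell surface antigen, read 7.15 in fl/fl and 7.48 in fl/wt, with its other probe set in the opposite direction. The B cell factor Pax5 was at 1.89 in fl/fl and 1.88 in fl/wt. The B cell median depended on the level filter and was 0.0067 with no filter or floor. Of 7 CD8 and NK cell markers 3 were measured, 2 higher and 1 lower, with a summed signal of 9.78 in fl/fl and 9.65 in fl/wt. Among them Cd8b1 read 8.81 in fl/fl and 8.54 in fl/wt, and Eomes read 6.95 in fl/fl and 6.87 in fl/wt. Cd8a read 8.26 in fl/fl and 8.29 in fl/wt, and its 2 probe sets disagreed in direction. The NK receptor Ncr1 was at 2.14 in fl/fl and 2.13 in fl/wt. Rgs1, Rgs2 and Rgs10 are also transcribed in myeloid or B cells, and how much of their signal comes from such cells was not tested. In sorted bulk RNA, fewer cells of a type and less RNA per cell cannot be told apart.

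Upstream of the Rgs proteins stand the chemokine receptors. Of 18 genes, each read by its brightest probe set, 12 were measured. In fl/fl 7 of these were higher and 5 were lower, no gene reached 1.5-fold, and the median was 0.022. Their differences ran from -0.14 to 0.16. Over all 9773 measured genes, 47.5% were higher, 0.246% were at least 1.5-fold higher and 0.399% at least 1.5-fold lower, and the median was -0.0045. Cxcr4, which holds cells in bone marrow, read 10.44 in fl/fl and 10.28 in fl/wt, a difference of 0.16, and the skin-homing receptor Ccr10 read 6.59 in fl/fl and 6.44 in fl/wt, a difference of 0.15. Cxcr5, the receptor that leads to B cell follicles, read 9.09 in fl/fl and 9.23 in fl/wt, a difference of -0.14. Ccr6 read 11.01 in fl/fl and 11.08 in fl/wt, a difference of -0.069. Cxcr3, a receptor of Th1-type inflammation, differed by -0.014 and Ccr7, which guides cells into lymph nodes, by -0.029.

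Other G protein coupled receptors of lymphocytes had 16 of 20 genes measured, 8 higher and 8 lower. Gpr132 differed by 0.22, at 6.08 in fl/fl and 5.86 in fl/wt, and the lysophospholipid receptor P2ry10 by 0.13. On the lower side were S1pr2 (-0.15), whose 2 probe sets disagreed in direction, and the acid sensor Gpr65 (-0.13). S1pr1, the receptor that lets lymphocytes leave lymph nodes, falls outside the rule for naming and was picked after its value was seen: it read 11.28 in fl/fl and 11.24 in fl/wt.

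The G proteins that Rgs proteins act on were read by their subunits. None of the 15 measured subunit genes reached 1.5-fold, as for nearly all genes of the array. Of 13 alpha subunits 8 were measured, 3 higher and 5 lower, with a median of -0.040. The Gs subunit Gnas read 14.28 in fl/fl and 14.37 in fl/wt, a difference of -0.082 that its other probe set did not share in direction. Gna12 (-0.14) was the lowest and Gna11 (0.042) the highest, and Gna13 read 13.85 in fl/fl and 13.83 in fl/wt. Of 15 beta and gamma subunits 7 were measured, 3 higher and 4 lower, with Gng12 at 0.16, Gnb2 at 0.036, Gnb5 at -0.12 and Gng2 at -0.15. The probe sets of Gng2 disagreed in direction. Gng10, one of the brightest of that list, differed by 0.025. The medians of both lists, -0.040 and -0.029, turned positive without probe sets of shared suffix (0.0090 and 0.030) and with no filter or floor (0.0052 and 0.0083), so no direction is given for either list.

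The remaining RGS domain genes were mostly not measured: of 15, 9 were under log2 5 in both arrays, 2 had no probe set with a single symbol here and 4 were measured. The Wnt pathway scaffolds Axin1 and Axin2 differed by -0.050 and -0.039, Rgs11 by -0.13 and Rgs9 by 0.068. Rgs11 was near the limit of measured values, at 5.42 in fl/fl and 5.54 in fl/wt. Proteins that bind or load Gi subunits had 5 of 8 genes measured, 3 higher and 2 lower. Ric8a, a chaperone and exchange factor for alpha subunits, read 13.08 in fl/fl and 12.94 in fl/wt, a difference of 0.14 in the same direction as its other probe set. Gpsm3 differed by 0.064, and on the lower side stood Gpsm1 (-0.19) and Ric8b (-0.051).

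Receptor kinases and arrestins, which silence receptors by phosphorylation and capture, had 5 of 7 genes measured, 3 higher and 2 lower. The kinase Grk6 read 14.17 in fl/fl and 14.16 in fl/wt, and the arrestin Arrb2 read 12.60 in fl/fl and 12.63 in fl/wt. Grk5 differed most, by 0.22, at 6.47 in fl/fl and 6.25 in fl/wt, and Grk3 differed by -0.034. Of all probe sets with a mean from log2 5 to 7, 58.2% differed by at least 0.1. Among 22 effectors downstream of G proteins 20 were measured, 9 higher and 11 lower, with a median of -0.0011. The cyclic nucleotide phosphodiesterase Pde3b read 8.68 in fl/fl and 8.39 in fl/wt, a difference of 0.29, the largest in size of any measured pathway gene here. The lipid kinase Pik3cg (0.19) and the Rap1 partner Apbb1ip (-0.19) had other probe sets of opposite direction, whereas all 4 probe sets of Rasgrp2, an activator of Rap1, were lower, its brightest by -0.16. The GTPase Rap1b read 14.84 in fl/fl and 14.81 in fl/wt, and the GTPase Rac2 read 14.22 in fl/fl and 14.21 in fl/wt.

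**Figure D4:**
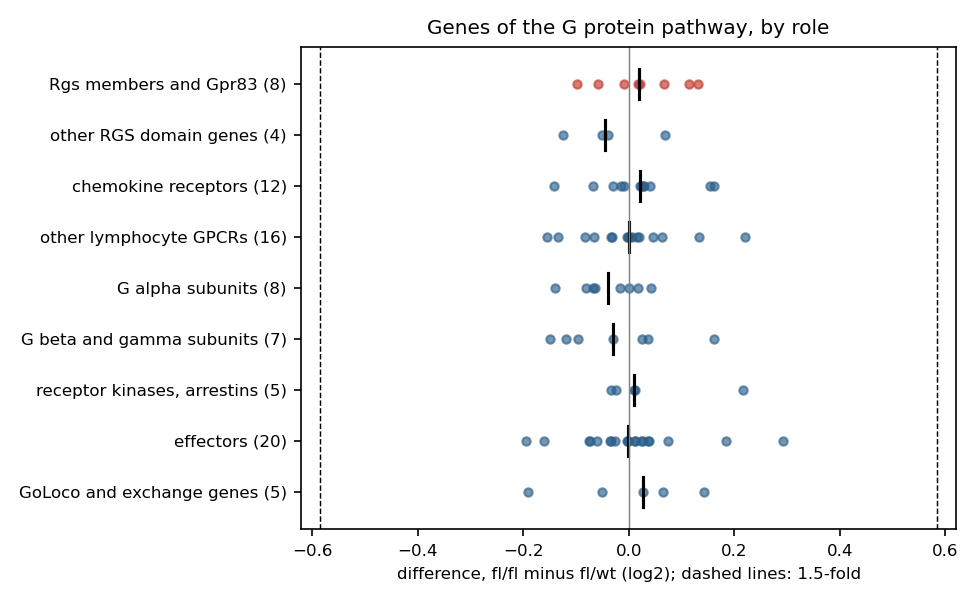
Difference between the fl/fl and fl/wt arrays on the log2 scale (horizontal axis) for each measured gene of the Rgs group and of 8 further lists of the pathway (rows, with the number of measured genes), each read by its brightest probe set; black ticks are medians. No point reaches the dashed lines at 1.5-fold, and the farthest is Pde3b at 0.29.

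Rgs1, Rgs2 and Rgs16 can be induced as cells are stimulated or handled, so immediate-early genes were read beside them. All 12 were measured, 6 higher and 6 lower in fl/fl, with a median of 0.00065. Fos read 15.10 in fl/fl and 15.09 in fl/wt, and Dusp1 read 15.01 in fl/fl and 15.02 in fl/wt. The activation marker Cd69 read 12.45 in fl/fl and 12.19 in fl/wt. Its difference of 0.26 lay outside the central range of differences for its level, the range used above for Rgs19. Atf3 read 6.89 in fl/fl and 7.12 in fl/wt, and its difference of -0.23 lay inside the wider range for its lower level. Jun differed by 0.070 (its other probe set in the opposite direction) and Fosb by -0.027. The part of these genes in the Rgs values was not tested.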

How the data were processed

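The deposited table holds log2 intensities of 45101 probe sets on 2 arrays, 1 per genotype. GCRMA, a background correction and normalisation based on probe sequence, is named in the submitters' processing notes, without version or settings. That the scale is log2 follows from the deposited values, which span 0.53 to 16.91. Gene names come from the platform annotation, with symbols updated by Entrez identifier through the RefSeq table, and only those with 1 symbol were used for genes.

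Differences are fl/fl minus fl/wt. A probe set counted as measured if either array reached log2 5, and 64 controls were left out. A value under 5 was set to 5. Where a list is counted by gene, the probe set with the highest mean stands for the gene. Probe affinities differ, so the levels of different probe sets are not read as relative amounts of transcript. With 1 array per genotype no test was possible, and the number of arrays limits the precision. Python 3.11.15, pandas 2.3.3 and statsmodels 0.14.6 were used. The procedure was tested on simulated data with shifts larger than 1.5-fold. That test does not bear on differences as small as those of the Rgs genes and Gpr83. Alternatives were other floors, 32 added on the linear scale, other scalings, leaving out probe sets of shared suffix (_s_at, _x_at, _a_at) and the median of a gene's probe sets.

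The members, lists and limits were chosen with earlier results of these data known. In the text all members are named, and of each other list the rule names up to 2 genes with the largest positive difference, 2 with the largest negative and the 2 brightest; marker genes named to check the cell type were picked from their lists as defining.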

Additional observations from a re-analysis of the deposited data

How the results depend on the processing

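No paired analysis was possible because each genotype had 1 array. The 15 measured Rgs and Gpr83 probe sets lie above log2 8 in both arrays, so other floors and leaving out other probe sets return the same values by construction. Under the alternatives that can move them, 32 added and the 3 other scalings, no difference changed sign or moved by more than 0.013 (log2). The smallest, that of Rgs2 1447830_s_at, ran from 0.00038 to 0.0062. List medians are small and their signs depend on the processing: 11 of 16 lists had a median of opposite sign under at least 1 alternative, among them B cell markers (-0.12, up to 0.0067), other RGS domain genes (-0.044, up to 0.016) and Treg markers (0.0085, down to -0.025). Counted by gene, the median of the Rgs group and Gpr83 (0.020) ran from 0.0027 to 0.022. The median of 0.0069 given above is that of the 15 probe sets. The number of their probe sets at least 1.2-fold lower, 0, became 1 both when the floor was log2 4 and without filter or floor, which is the dim Rgs3 probe set that then counts as measured. At the limit of 0.1, chosen after the data were seen, 4 were lower with no filter or floor, against 2, and 0 were higher and 0 lower without probe sets of shared suffix, which removes all 5. Counts over the whole array depended on the floor. Of all probe sets, 55 were 1.5-fold higher and 99 lower; these became 111 and 170 when the floor was log2 4, 30 and 41 when it was log2 6, 217 and 278 with no filter or floor, and 21 and 23 with 32 added. The 2-fold counts, 7 higher and 6 lower, became 19 and 16, 4 and 2, 37 and 36, and 3 and 0 under the same settings, and 3 and 3 without probe sets of shared suffix. The 1.2-fold counts, 664 and 763, became 1265 and 1368 with no filter or floor. The cause of these changes was not tested. Signal near background limits what can be said of Rgs18 and of the dim probe sets of Rgs2, Rgs3 and Rgs16.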

Other observations

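Of the 9 measured Rgs probe sets with a suffix for shared probes or alternative transcripts, 5 differed by at least 0.1 on the log2 scale, and of the 6 measured probe sets of the group with no suffix, 0 did. Among all measured probe sets the order was the other way, with 23.6% of those with a suffix and 34.9% of those without one past the same limit. At or above a mean of log2 9 the counts were 4 of 8 with a suffix and 0 of 6 without, against 12.8% and 18.1% of all probe sets at that level. This cut does not match the levels. The 6 without a suffix had means of log2 12.61 to 14.06. Of the 5 past 0.1, all but that of Rgs19 had means under log2 11, where differences of this size were more common. Suffix and level thus cannot be told apart here. The split was seen after the values, and Gpr83, Rgs1, Rgs2 and Rgs10 hold all of the probe sets without a suffix.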
